A study of Homo sapiens with 8 samples.

Results

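The MYC, MAX and MXD network was followed in HCT116 cells, a human colorectal carcinoma line, through the RNA level and the m6A peaks of 10 genes: MYC, MYCL, MAX, MXD1, MXD3, MXD4, MXI1, MNT, MLX and MGA. They were taken by gene symbol from an expression table of 19475 entries and from 4 lists of m6A peaks, and all 10 were found in both kinds of file. The cells had been treated for 2 h with Fusobacterium nucleatum, a bacterium found in colorectal tumours, at 100 bacteria per cell, or with PBS, which served as Control. N6-methyladenosine (m6A), the most common internal methylation of mRNA, was mapped in poly(A) RNA by pulling down fragments with an m6A antibody (IP) beside fragments that were not selected (input). Each treatment had 2 input and 2 IP libraries, and the peak list of a library came from its IP and input. The methods of the study call the replicates biological, and the labels do not say whether they were separate cultures. The p-values given below for differences between the treatments rest on these libraries alone. The p-values listed for single peaks are the authors', each from the IP and input of a single library, and hold no spread between libraries.

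MYC is a transcription factor that binds DNA only as a dimer with MAX, and it drives genes of ribosome production, metabolism and cell division. MAX also pairs with the MXD proteins, MNT and MGA, which occupy the same sites and recruit repressor complexes, so that the relative amounts of the partners matter for the output. MLX is a MAX-like partner that works mostly with the glucose-sensing factors MLXIP and MLXIPL. In colorectal carcinoma MYC is known for high expression downstream of Wnt signalling.

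The marked adenosine usually lies in a GGAC context. As an example, a GGAC is shown with 10 bases on each side for each member with a region called in all 4 lists, other than MYC. It lies nearest to the centre of the strongest such region. Those regions held 5 (MAX), 9 (MXD3), 2 (MNT), 1 (MLX) and 3 (MGA) GGAC. The sequences were read from GRCh37 (hg19) on the transcript strand, and the capitals mark the chosen GGAC. The MXD3 window holds another GGAC, left in lower case.
MAX: agaagctcttGGACaacagctctc
MXD3: ctgttggaatGGACtaaaaggacc
MNT: tgctgcactaGGACttggtaagat
MLX: ccgggagactGGACtacaacacct
MGA: tgggtcagttGGACacaaaatgaa

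The MAX window lies at chr14:65543024-65543047 on the minus strand, in the 3′UTR, with its adenosine 161 nt after the end of the coding sequence. The MXD3 window (chr5:176734468-176734491, minus strand) lies in the 3′UTR 112 nt after the coding sequence. The MNT window (chr17:2289995-2290018, minus strand) lies in the 3′UTR 191 nt after the coding sequence. The MLX window (chr17:40723695-40723718, plus strand) lies 88 nt after the coding sequence. In contrast, the MGA window (chr15:42059343-42059366, plus strand) lies inside the coding sequence, 121 nt before its end. A match to GGAC is a description of the letters and not a mapped methylation site.

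MYC was by far the most abundant member. FPKM, fragments scaled by transcript length and library total, can be compared between genes. MYC measured 152.2 and 191.7 FPKM with PBS, against 175.6 and 185.1 FPKM with F. nucleatum, and held rank 353 of the 19475 entries. The F. nucleatum values lay between the Control values. The other activator, MYCL, stood at 0.468 and 0.551 FPKM in Control, against 0.492 and 0.323 FPKM in F. nucleatum, so MYC was the MYC-family activator with a sizeable level. MYCN was listed at 0 in all 4 libraries.

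MAX, the partner shared by activators and repressors, stood at 19.70 and 19.40 FPKM in Control, against 18.37 and 18.93 FPKM in F. nucleatum. Both F. nucleatum values were lower than both Control values. The ratio of MYC to MAX was 7.72 and 9.88 in Control, against 9.56 and 9.78 in F. nucleatum, and the groups overlapped.

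The MXD repressors differed widely in level. MXD3 stood at 15.16 and 14.33 FPKM in Control, against 14.94 and 12.62 FPKM in F. nucleatum. MXI1 stood at 11.40 and 10.79 FPKM in Control, against 14.09 and 11.53 FPKM in F. nucleatum, where both values were the higher ones. MXD4 stood at 7.75 and 7.71 FPKM in Control, against 7.42 and 7.61 FPKM in F. nucleatum. These 3 repressors made up nearly all of the MXD level, since MXD1 was low, at 0.817 and 0.764 FPKM in Control, against 0.693 and 0.510 FPKM in F. nucleatum.

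MNT, a repressor expressed in most cell types, stood at 5.29 and 4.91 FPKM in Control, against 4.91 and 4.90 FPKM in F. nucleatum. MGA, a very large protein that joins a T-box domain to a MAX-binding domain and belongs to a Polycomb complex, stood at 4.45 and 5.12 FPKM in Control, against 5.37 and 4.48 FPKM in F. nucleatum. Both sets of values overlapped between the treatments. MLX stood at 46.84 and 47.63 FPKM in Control, against 42.66 and 44.19 FPKM in F. nucleatum, with both F. nucleatum values lower.

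Over all 4 libraries the order by mean level was MYC (176 ± 17.3 FPKM, SD, n = 4), MLX (45.3 ± 2.31), MAX (19.1 ± 0.579), MXD3 (14.3 ± 1.15), MXI1 (12.0 ± 1.46), MXD4 (7.62 ± 0.146), MNT (5.00 ± 0.192), MGA (4.85 ± 0.463), MXD1 (0.696 ± 0.134) and MYCL (0.458 ± 0.0968). The ranges of MXD3 and MXI1 overlapped, as did those of MNT and MGA and those of MXD1 and MYCL. All other neighbours in the order were separated in these libraries. Read against the repressors, MAX came to 0.487 and 0.504 of the summed level of MXD1, MXD3, MXD4, MXI1 and MNT in Control and to 0.437 and 0.509 in F. nucleatum.

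**Figure D1:**
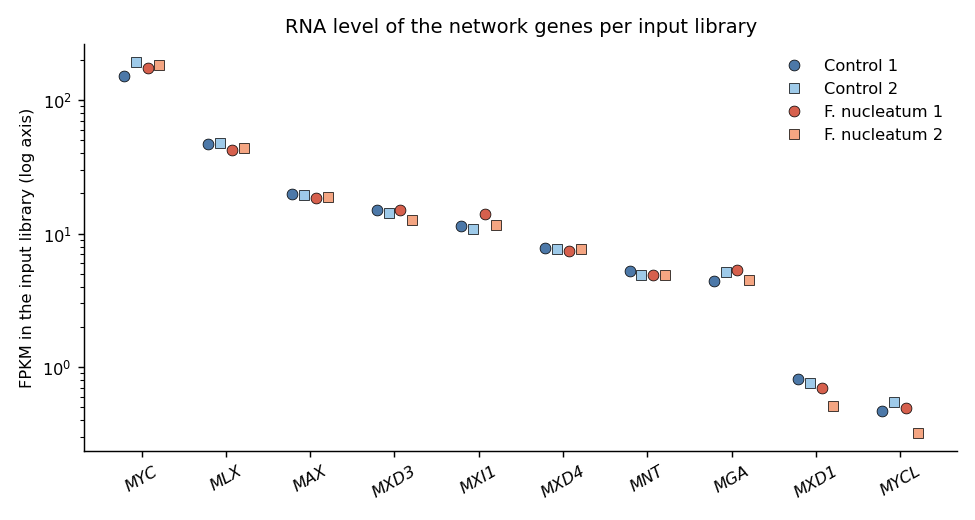
FPKM of the 10 network genes (log axis) in each of the 4 input libraries, with the genes ordered by mean level; circles are replicate 1 and squares are replicate 2, blue for Control and red for F. nucleatum. The gap between MYC at 152.2 to 191.7 FPKM and every other member was larger than any difference between the treatments.

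No member passed the test for a change in level. Of the 8 members with a mean of at least 1 FPKM, 0 had an adjusted p under 0.05 with limma, beside 0.803% of all 11088 tested genes. At an unadjusted p under 0.05 there were also 0 members, beside 7.04% of all tested genes higher and 6.45% lower in F. nucleatum. MYC was under 0.05 without Control 2 and MXI1 without F. nucleatum 2. The lowest adjusted p belonged to MLX, whose level differed by -0.12 (95% interval -0.26 to 0.02) on the log2(FPKM + 1) scale, with a limma adjusted p of 0.427. For MYC the difference was 0.08 (-0.20 to 0.36), with a limma adjusted p of 0.780. The interval of MYC thus reached as far as a 0.36 rise and a 0.20 fall on that scale.

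The difference for MXI1 was 0.19 (-0.08 to 0.45) on the same scale, that for MGA 0.03 (-0.25 to 0.32), that for MXD4 -0.04 (-0.22 to 0.15), that for MNT -0.05 (-0.25 to 0.16), that for MAX -0.06 (-0.22 to 0.09) and that for MXD3 -0.10 (-0.34 to 0.15). Their limma adjusted p-values lay between 0.487 for MXI1 and 0.925 for MGA. MXD1 and MYCL were below the filter and were not tested in the main fit. With no filter their limma adjusted p-values were 0.487 and 0.638. Their differences on the same scale were -0.16 and -0.10, and with a pseudocount of 0.1 they were -0.36 and -0.28. The groups did not overlap, with F. nucleatum above, for 1 of the 8 tested members (MXI1), where 26.1% of all tested genes did so, and with F. nucleatum below for 3 of 8 (MAX, MXD4 and MLX), where 21.1% of all tested genes did so. Of the members not tested in the main fit, MXD1 was lower in both F. nucleatum libraries.

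The direction for MYC depended on Control 1. Without Control 1 the difference for MYC was -0.09, and without Control 2 it was 0.24 with a limma adjusted p of 0.0886. The difference for MXI1 was 0.05 without F. nucleatum 1 and 0.32 without F. nucleatum 2. The 3 tested genes whose 4 centred log2(FPKM + 1) values were closest to those of MYC were SLC35B2, a Golgi transporter of the sulfate donor PAPS, BCKDHA, a subunit of the branched-chain ketoacid dehydrogenase, and CBX8, a Polycomb protein. Their root mean square differences from MYC over the 4 libraries were 0.012, 0.013 and 0.015 on the log2 scale.

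**Figure D2:**
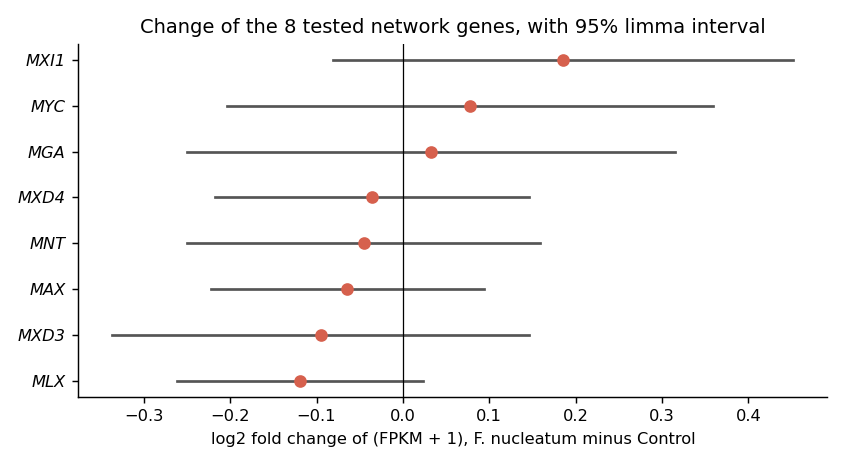
Difference in mean log2(FPKM + 1), F. nucleatum minus Control, for the 8 tested network genes, with the 95% limma interval as a line. Every interval crosses 0, and the point estimates run from -0.12 for MLX to 0.19 for MXI1.

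The m6A peaks of the network were more numerous in the F. nucleatum lists. The members held 15 and 17 peaks in the Control lists and 23 and 21 peaks in the F. nucleatum lists, whereas the complete lists held 17198, 18149, 18365 and 17039 peaks. The mean was 16 ± 1.41 (SD, n = 2) for Control and 22 ± 1.41 for F. nucleatum, a difference of 6 peaks. The two-sided exact permutation p was 0.333, the smallest that 2 libraries against 2 can give. Counted in exonic bases the network was not set apart, with 8235, 9617, 10396 and 8092 nt in peaks and an exact permutation p of 1. With peaks limited to a p-value of at most 1e-05, the members held 10, 10, 15 and 10 peaks, a difference of 2.5.

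The extra peaks came mostly from MYC and MGA. MYC held 1, 2, 3 and 4 peaks in Control 1, Control 2, F. nucleatum 1 and F. nucleatum 2, and MGA held 5, 5, 8 and 7. Both were higher in both F. nucleatum lists, a pattern of 5.41% of the 11155 genes with a peak. No member was lower in both F. nucleatum lists, where 5.63% of all genes with a peak were. MAX held 2 peaks and MNT 3 peaks in every list. The other counts overlapped, at 2, 1, 1 and 1 for MXD3, 2, 1, 2 and 2 for MLX, 0, 1, 2 and 1 for MXD1, and 0, 1, 2 and 0 for MYCL. MXD4 had a single peak, in Control 2, and MXI1 a single peak, in F. nucleatum 2.

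Merged over the lists, the peaks of the members formed 28 regions. Of these, 10 were found in all 4 lists (35.7%, against 51.5% of all 22382 regions) and 12 in a single list (42.9%, against 25.6%), 4 of them in a Control list and 8 in an F. nucleatum list. No region of the network was present in both Control lists and absent from both F. nucleatum lists, a state of 2.65% of all regions. Likewise, 0 were present in both F. nucleatum lists and absent from both Control lists, where 2.37% of all regions were. The bases covered in all 4 lists made up 48.9% of the bases covered in any list for the members and 52.0% for all genes.

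MYC carried a long m6A region. Its main region spanned chr8:128748248-128753492 on the plus strand and all 3 exons of the canonical transcript, with 2245 exonic nt and 12 GGAC. The lowest p-value in it was listed at 0 in all 4 lists, a value that between 0.734% and 0.969% of the peaks of each list shared, and the one peak of the region with another value lay in F. nucleatum 2 (211 nt, listed at 5e-13). The bases covered in all 4 lists came to 1918 nt, more than in 98.6% of the 565 genes within 2-fold of its FPKM, which were not matched on length. In every list the coverage stopped 288 nt after the stop codon, and the rest of the 3′UTR (1993 nt in the canonical transcript) held no peak.

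In both Control lists the main MYC region was 1 continuous peak of 2215 nt. In both F. nucleatum lists it was broken at the same 149 nt, chr8:128751040-128751188, inside exon 2 (772 nt), which correspond to codons 193 to 242 of 454. That stretch had a GC content of 64.4% and held 0 GGAC. The coding sequence of MYC was covered over 100% of its length in both Control lists and over 89.1% in both F. nucleatum lists. F. nucleatum 2 had a further break in the 5′UTR of the first exon, where 275 of 393 nt were covered.

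Breaks of this kind were counted over all genes after the MYC gap had been seen. A single peak in both Control lists and more than 1 peak in both F. nucleatum lists was found in 1.38% of the 11528 regions present in all 4 lists, and in 5.51% of the 780 such regions of at least 1500 nt. The opposite pattern was found in 1.06% and 2.69% of them. At least 100 exonic nt covered in both Control lists and in no F. nucleatum list were present in 10.5% of the genes with a peak, and MYC was the member among them. The reverse was present in 6.90% of genes, and MGA, with 119 nt in 4 pieces of 29 to 31 nt, was the member among them. In the other members such stretches were between 29 and 61 nt long.

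The second MYC region (chr8:128747680-128747979) lies upstream of the canonical start, in the 5′UTR of the isoform MYC-201. It was absent from Control 1 and covered 150 nt in Control 2, 270 nt in F. nucleatum 1 and 180 nt in F. nucleatum 2. Its p-values were 0.00022, 2.9e-08 and 3.9e-05 in that order. It and the break in exon 2 account for the higher peak number of MYC, together with the 5′UTR break in F. nucleatum 2. The antisense lncRNA CASC11 shares exonic bases with the main region, and whether the peak calling used strand is not given in the sources used here.

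MAX carried m6A peaks towards both ends of its transcript in every list. The 5′ region (chr14:65560476-65569234) covered 210 nt in Control 1, 269 nt in Control 2, 298 nt in F. nucleatum 1 and 269 nt in F. nucleatum 2, across the 5′UTR and the first coding exons. The 3′ region (chr14:65542610-65544138) covered 715, 745, 715 and 865 nt in the same order, and 652 to 772 nt of it lay in the last exon (1537 nt). It held 5 GGAC, all in bases covered in all 4 lists, and 96.4% of the 2560 regions of similar length held at least 1. Exonic nt in peaks came to 925 and 1014 in Control, against 1013 and 1134 in F. nucleatum, and the groups overlapped. A lncRNA on the opposite strand shares bases with the 5′ region.

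MXD3 carried a dense block of GGAC, with 10 copies in a canonical transcript of 1067 nt (9.37 per kb, the highest density among the members). Its region (chr5:176734170-176734942) ran through the whole 3′UTR in every list and held 9 GGAC. The peaks shared their 3′ end and covered 687 nt in Control 1, 627 nt in Control 2, 598 nt in F. nucleatum 1 and 419 nt in F. nucleatum 2. The coverage of the coding sequence was 44.3% and 34.6% in Control against 29.9% and 0.971% in F. nucleatum. Summed over both MXD3 regions the exonic nt were 837, 627, 598 and 419, lower in both F. nucleatum lists, with an exact permutation p of 0.333. This pattern was found in 17.8% of genes with a peak, and the opposite, which no member showed, in 14.3%. The second region, 150 nt in the 3′UTR of the isoform MXD3-202 and called in Control 1, overlaps exons of PRELID1 on the other strand.

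MXD4 and MXI1 had little of their RNA in peaks, and so had the less expressed MXD1 and MYCL. The highest coverage of the canonical transcript in a list was 5.45% for MXD4 and 5.19% for MXI1. It was 3.8% for MXD1 and 6.81% for MYCL. MXD4 had 1 peak of 211 nt in Control 2, which ended at the stop codon and had a listed p-value of 1.7e-05. MXI1 had 1 peak of 180 nt in F. nucleatum 2, in the 3′UTR, with a listed p-value of 4.8e-06. By comparison, 74.9% of the genes within 2-fold of the MXD4 level and 75.5% of those within 2-fold of the MXI1 level had a peak in all 4 lists. Their canonical transcripts held 15 and 12 GGAC, or 3.87 and 3.46 per kb.

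MXD1 had a region over the last coding exons (chr2:70162587-70165297) in every list but that of Control 1, with 180 nt in Control 2, 151 nt in F. nucleatum 1 and 91 nt in F. nucleatum 2. Its p-values, 0.00037, 0.00029 and 0.0017, came late in each list, at 80.2%, 79.4% and 91.7% of the ranking. MYCL had 3 regions, each in 1 list, with p-values between 0.00037 and 0.0041. At the low FPKM of these genes, 32.7% of like-expressed genes for MXD1 and 19.7% for MYCL had a peak in all 4 lists.

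MNT had a region in its first large coding exon and one after the stop codon in all 4 lists. The coding region (chr17:2298266-2298655) covered 150 and 270 nt in Control, against 390 and 90 nt in F. nucleatum. The 3′UTR region (chr17:2289775-2290133) covered 240 and 240 nt in Control, against 330 and 61 nt in F. nucleatum. F. nucleatum 2 was the low list for both. A further region in the second part of the coding sequence was called in Control 1, Control 2 and F. nucleatum 1 with 300, 569 and 330 nt. Over the gene the exonic nt were 690 and 1079 in Control, against 1050 and 301 in F. nucleatum, and the groups overlapped. The 3′UTR region shares bases with a lncRNA of the opposite strand.

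MLX carried a short, steady region at the stop codon (chr17:40723583-40723821), with 209 nt in both Control lists and 180 nt in both F. nucleatum lists. The listed p-values were 1.1e-08 and 3.2e-12 in Control, against 1.2e-08 and 1.6e-10 in F. nucleatum. A second region near the 3′ end of the transcript, absent from Control 2, covered 209 nt in Control 1, 329 nt in F. nucleatum 1 and 179 nt in F. nucleatum 2, and it overlaps exons of PSMC3IP on the other strand.

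MGA had the most peaks and regions, spread over a canonical transcript of 12193 nt. Its strongest region (chr15:42057216-42059984) ran from the end of exon 23 through the stop codon in exon 24 and covered 1619 nt in Control 1, 1739 nt in Control 2, 1828 nt in F. nucleatum 1 and 1738 nt in F. nucleatum 2. The second (chr15:42041376-42042754), inside the long exon 17, covered 1080, 1379, 1319 and 1110 nt, as 2 peaks in Control 1 and F. nucleatum 2 and as 1 peak in the other lists. The next, in exon 2 (chr15:41961481-41961960), covered 361, 211, 420 and 300 nt. The bases in all 4 lists came to 2850 nt, more than in 99.6% of the 3969 genes within 2-fold of its FPKM. Those genes were not matched on transcript length. Peaks covered 25.8% and 31.7% of the MGA transcript in Control, against 36.2% and 28.8% in F. nucleatum. GGAC was sparse in it, at 2.62 per kb.

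The other MGA regions were each missing from at least 1 list. A region in exon 3 (chr15:41988586-41989035) was absent from Control 1 and covered 151 nt in Control 2, 360 nt in F. nucleatum 1 and 91 nt in F. nucleatum 2. F. nucleatum 1 alone held 3 regions of 120, 91 and 61 nt with p-values of 0.00013, 0.0023 and 0.0013. A region over exons 8 and 9 was called in Control 1 (90 nt), F. nucleatum 1 (210 nt, listed at 2.4e-06) and F. nucleatum 2 (271 nt, as 2 peaks). Control 2 alone held a region of 391 nt, listed at 0.00087. Total bases in MGA peaks overlapped between the treatments, at 3150 and 3871 nt in Control, against 4409 and 3510 nt in F. nucleatum.

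The midpoints of the members' peaks lay mostly in coding sequence. Among peaks placed on a canonical transcript, the share with its midpoint in the coding sequence was 57.1% and 62.5% for Control, against 57.1% and 61.1% for F. nucleatum. Over all peaks it was 45.9% and 46.9%, against 44.3% and 44.2%. MGA supplied 5 of 8 and 5 of 10 of the members' coding sequence peaks in Control and 8 of 12 and 7 of 11 in F. nucleatum.

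Lists of genes that work with the network were read in the same way. Of the other network factors, MLXIP stood at 9.59 to 10.84 FPKM and differed by -0.06 on the log2(FPKM + 1) scale, and MLXIPL stood at 18.70 to 24.27 FPKM and differed by 0.02. Among 12 MYC coactivators, 0 passed the adjusted threshold and the median difference was -0.06. RUVBL2, an ATPase of chromatin remodelling complexes, had the lowest p, at 150.7 and 151.5 FPKM in Control, against 131.8 and 135.5 FPKM in F. nucleatum, with a limma adjusted p of 0.270. BPTF, a remodelling factor subunit, stood at 9.67 and 10.90 FPKM against 11.89 and 11.42 FPKM. Among 12 corepressors of the MXD proteins, MNT and MGA, 0 passed, the median was -0.03, and the lowest p-values were those of E2F6, at 7.70 and 13.97 FPKM in Control, against 14.50 and 14.38 FPKM in F. nucleatum, and of PCGF6, at 15.00 and 14.28 against 13.50 and 13.27 FPKM. CBX3, a heterochromatin protein, and HDAC1 were the most expressed of that list, at 136.4 to 144.9 and 135.8 to 146 FPKM, and their ranges overlapped. Among 9 tested genes of MYC turnover, 0 passed and the median was -0.03. FBXW7, the ubiquitin ligase subunit that marks MYC for degradation, stood at 5.05 and 5.22 FPKM in Control, against 4.42 and 4.42 FPKM in F. nucleatum, with a limma adjusted p of 0.397. GSK3B, a kinase that phosphorylates MYC, stood at 6.36 and 6.17 against 6.67 and 6.84 FPKM, and SET, an inhibitor of the phosphatase PP2A, was the most expressed, at 189.1 to 197.2 FPKM.

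Most listed genes that MYC is known to induce were lower in F. nucleatum, and the listed genes that it represses were higher. MYC itself had no detected change. Both lists were chosen with earlier results of these data known. The shares of all tested genes beside them therefore describe the lists and do not test them. Of 16 tested genes of the induced list, 13 had a negative and 3 a positive log2 difference, with a median of -0.11 against 0.01 for all tested genes. Of these, 0 passed the adjusted threshold and 7 had an unadjusted p under 0.05, all lower in F. nucleatum, where 6.45% of all tested genes were. The 7 became 2 without F. nucleatum 1 and 2 without F. nucleatum 2, and without Control 2 there were 7 lower and 3 higher genes at that p. BOP1, a factor of ribosome assembly, had the lowest p, at 98.15 and 90.51 FPKM in Control, against 69.69 and 72.45 FPKM in F. nucleatum, a difference of -0.40 with a limma adjusted p of 0.0970. NOP16, a nucleolar protein, stood at 85.09 and 84.25 FPKM in Control, against 66.96 and 69.60 FPKM in F. nucleatum, a difference of -0.31 with a limma adjusted p of 0.124. In both, the F. nucleatum values were below the Control values. NPM1, the most expressed gene of the list, stood at 1626 to 1742 FPKM and differed by -0.04.

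In the repressed list, chosen with the same knowledge, all 4 genes had an unadjusted p under 0.05 and were higher in F. nucleatum. This held for 7.04% of all tested genes, and 1 of the 4 passed the adjusted threshold. The 4 became 2 without either F. nucleatum library. CDKN1A, which encodes the cell cycle inhibitor p21, rose from 85.66 and 89.89 FPKM in Control to 126.4 and 125.3 FPKM in F. nucleatum, a change of 0.52 with a limma adjusted p of 0.0244. GADD45A, a stress response gene, stood at 34.41 and 30.24 FPKM in Control, against 46.52 and 50.23 FPKM in F. nucleatum, a difference of 0.57 with a limma adjusted p of 0.0783. CDKN1A and GADD45A also answer to p53 and stress pathways, and the cause of their differences was not tested. The call of CDKN1A was lost without the filter on low values (adjusted p = 0.0566), without the trend (0.0791), without F. nucleatum 1 (0.301) and without F. nucleatum 2 (0.276).

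**Figure D3:**
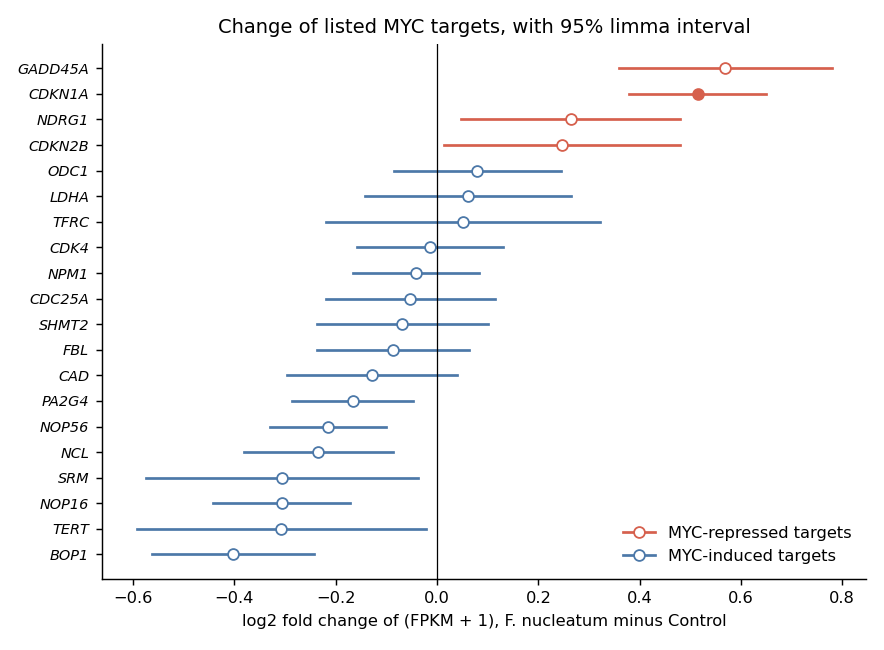
Difference in mean log2(FPKM + 1), F. nucleatum minus Control, for the 16 tested MYC-induced (blue) and the 4 MYC-repressed (red) genes, with the 95% limma interval as a line; a filled point has an adjusted p under 0.05. The only filled point is CDKN1A at 0.52, and the induced genes run from -0.40 for BOP1 to 0.08 for ODC1. Both lists were chosen with earlier results of these data known.

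The cells carried epithelial markers throughout. KRT8, a keratin of simple epithelia, stood at 1941 to 2286 FPKM, with a limma adjusted p of 0.291, and CDH1, E-cadherin, at 11.92 to 13.63 FPKM, with a limma adjusted p of 0.389. The 4 leukocyte markers together reached 0.222 FPKM at most in a library, with CD3E at 0 in every library. Of the fibroblast and endothelial markers, COL1A2 was at 0 in every library, and COL1A1 stood at 4.51 and 3.78 FPKM in Control, against 5.72 and 5.05 FPKM in F. nucleatum.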

How the data were processed

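The deposited expression values were FPKM of the 4 input libraries, which the authors computed after aligning to hg19. The submitters' notes name Trim Galore 0.3.3, HISAT2 2.1.0 and StringTie. The deposited peak lists hold exon blocks, a gene name and 1 value per peak, read here as the authors' p-value before correction. MACS2 is the peak caller in the study's methods, but exon blocks are a layout of exomePeak, so the program was not settled. No counts were given, so the absolute depth and the IP depth are unknown and no count model could be used. From genes at or below 0.05 FPKM the input depth relative to Control 1 was estimated, from few genes, at 1.12 (Control 2), 1.24 and 0.910 (F. nucleatum, replicates 1 and 2).

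The members and lists were chosen with earlier results of these data known. Levels were tested with limma 3.58.1 (R 4.3.3, trend) on log2(FPKM + 1), which understates changes of low genes, for genes averaging at least 1 FPKM, with Benjamini-Hochberg adjustment over all of them at 0.05. Peaks of a gene sharing at least 1 exonic base were merged into regions and placed on GENCODE release 44 transcripts mapped to GRCh37 by the midpoint, with a stop codon class of 100 nt on either side. GGAC was searched on the transcript strand. An exact permutation test, two-sided, compared the summed peaks. Other steps used Python 3.11.15. From each further list the text names genes past the threshold, the 2 lowest p-values and the highest level. Markers at 0 were named besides, as were HDAC1, which overlapped CBX3 in level, and KIAA1524, which had no expression entry. Both procedures were tested on simulated data.

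Same-numbered libraries of the treatments were not taken as pairs in the main test. The labels name no shared batch, and the deviations of these libraries from the group mean had a correlation of 0.0243 over 11088 genes. Whether they shared a batch cannot be told from this.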

Additional observations from a re-analysis of the deposited data

How the results depend on the processing

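No network member passed the adjusted threshold under any of the alternatives run: a pseudocount of 0.1, no filter, a mean of at least 5 FPKM, quantile normalization, median centring, no trend, an unadjusted p under 0.05 with a log2 change over 1, and the replicate block, which also called 0 members and changed no other call of a member. Leaving out 1 library gave 0 in each case. Over all genes the calls fell from 89 to 40 without a filter and to 60 without the trend, for which the cause was not tested, and ranged from 16 to 284 when 1 library was left out. The scaling alternatives moved the median of all genes to between -0.01 and 0.00 from 0.01. MGA turned to -0.0105 with quantile normalization. With a pseudocount of 0.1 MXD1 moved to -0.356 and MYCL to -0.281. The repressed targets at an unadjusted p under 0.05 numbered 3 with quantile normalization and with the replicate block. When 1 library was left out, the log2 change ranged from -0.088 to 0.243 for MYC, 0.0516 to 0.32 for MXI1, -0.208 to 0.0179 for MXD3, -0.245 to -0.081 for MXD1, -0.0907 to 0.000563 for MNT and -0.0759 to 0.14 for MGA. The difference in network peaks was 5 to 7 without 1 library, and regions in all remaining lists numbered 10 to 13, against 7 at a p-value of at most 1e-05 and 8 with a reciprocal overlap of 50%. Regions private to one treatment numbered 0 as reported, 1 with a reciprocal overlap of 50%, and 3 to 6 when 1 library was left out, where 1 list stood for a treatment by construction. With 2 libraries a group, no permutation test could pass 0.05.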

Other observations

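At least 1 peak in each of the 4 lists, at the same position or not, was present on 6 of 10 network genes, 11 of 12 corepressor genes and 10 of 12 MYC coactivators. The same held for 7 of 10 genes of MYC turnover, 11 of 17 induced and 3 of 4 repressed targets. It also held for both MLXIP and MLXIPL of 3 other network factors, and for 2 of 3 targets of MLX and its partners. CDKN1A and GSK3B were counted although 0 nt of either were covered in all 4 lists. KIAA1524, a turnover gene, had no expression entry under that symbol and no peak. Of all entries with a mean of at least 1 FPKM, 68.7% had one, and the list counts include genes below that level. Among the targets of MLX, ARRDC4 stood at 1.49 to 2.02 FPKM and differed by 0.01 on the log2(FPKM + 1) scale. PKLR, the other one counted, reached only 0.0255 FPKM, in Control 2. TXNIP, which had no peak, reached 0.00826 FPKM, also in Control 2.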
